A study of Mus musculus with 2 samples.

Results

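The 10 genes described here are imprinted genes that hypothalamic neurons transcribe: Meg3, Rian, Mirg, Peg3, Ndn, Magel2, Gnas, Nnat, Snrpn and Grb10. They were chosen by symbol from the 32289 features of the count matrices, and all 10 held transcripts in both libraries. Their counts of unique molecular identifiers (UMIs, 1 per captured transcript) were taken over barcodes with 500 or more genes and at most 5% mitochondrial UMIs, which left 8597 aged and 10437 young nuclei. Over those nuclei the 10 genes held 598706 of 57472005 UMIs in the aged library (1.04%) and 838268 of 69103229 in the young library (1.21%).

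Single-nucleus RNA was measured in the anterior hypothalamus with the preoptic area of male mice. One library pooled tissue of 5 mice aged 22 months and the other pooled tissue of 5 mice aged 3 months, which the labels call wild-type. The genotype of the aged mice is not stated beyond that, no treatment is named for either group, and the strain was not given in the sources used here. With 1 library per age, the age of the mice, the pool and the library cannot be told apart, and no test between ages was possible. Intervals below are 95% intervals that cover counting error only.

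Imprinted genes are transcribed mainly from the copy inherited from one parent, because the copy of the other parent carries silencing marks laid down in the germ line. Several of them act in the hypothalamus, where they take part in feeding, growth, temperature control and hormone release, and loss of the human counterparts of Ndn, Magel2 and Snrpn belongs to the Prader-Willi region. Meg3, Rian and Mirg are non-coding RNAs from the maternal copy of the Dlk1-Dio3 region, and Rian and Mirg are host transcripts of small nucleolar RNAs and microRNAs. The counts carry no allele information, so every level below is the sum over both parental copies.

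By the GENCODE M21 annotation, Meg3, Rian and Mirg lie one after another on the plus strand of chromosome 12. Peg3, Ndn, Magel2 and Snrpn lie on chromosome 7, Gnas and Nnat on chromosome 2, and Grb10 on chromosome 11. Nnat overlaps Blcap on the opposite strand, Gnas overlaps Gnasas1 and Gm20721, and Ndn and Magel2 both overlap Gm32061. Snrpn shares its strand with the overlapping Snurf and Gm38393. Whether counting used the strand was not stated, so reads of these overlapping pairs may have been assigned to either gene or to none, and the levels of Nnat, Gnas, Ndn, Magel2 and Snrpn carry that uncertainty.

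The start regions of 4 members that vary among neuron types, or that vary together, are shown here as the 250 bases upstream of the annotated RefSeq start on build GRCm38.p6, 5′ to 3′ on the gene's own strand. The windows are chr7:62376729-62376978 for Magel2, chr2:157559828-157560077 for Nnat, chr12:109540746-109540995 for Meg3 and chr7:6730420-6730669 for Peg3. Peg3 is on the minus strand and the other 3 are on the plus strand. Capitals mark exact matches on either strand to TGACGTCA (the full cyclic AMP response element), CGCATGCG (a core of the NRF1 site) or TATAAA (the box bound by the TATA-binding protein).
Magel2: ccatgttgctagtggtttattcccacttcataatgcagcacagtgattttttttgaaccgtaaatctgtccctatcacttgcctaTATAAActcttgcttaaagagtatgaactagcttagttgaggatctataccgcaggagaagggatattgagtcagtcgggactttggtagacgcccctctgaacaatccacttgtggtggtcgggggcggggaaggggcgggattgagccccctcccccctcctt
Nnat: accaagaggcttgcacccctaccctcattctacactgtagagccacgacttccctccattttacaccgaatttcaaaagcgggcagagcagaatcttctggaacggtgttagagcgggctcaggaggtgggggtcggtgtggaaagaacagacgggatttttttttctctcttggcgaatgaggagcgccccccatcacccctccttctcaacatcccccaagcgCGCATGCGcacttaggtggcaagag
Meg3: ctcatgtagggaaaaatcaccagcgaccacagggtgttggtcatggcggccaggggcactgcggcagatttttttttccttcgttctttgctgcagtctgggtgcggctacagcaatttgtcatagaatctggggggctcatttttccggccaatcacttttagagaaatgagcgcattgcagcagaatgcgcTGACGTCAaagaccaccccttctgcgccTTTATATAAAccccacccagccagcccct
Peg3: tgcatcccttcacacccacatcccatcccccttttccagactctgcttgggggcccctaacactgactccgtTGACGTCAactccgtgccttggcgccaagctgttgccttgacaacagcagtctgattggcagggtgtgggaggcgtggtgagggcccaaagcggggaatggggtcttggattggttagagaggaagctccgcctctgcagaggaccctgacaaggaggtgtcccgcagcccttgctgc
Over the RefSeq windows that run 250 bases before to 50 bases after a start, all 10 members matched an entry, in 18 windows. TGACGTCA was present for Meg3 and Peg3 and in 1.79% of all 32851 windows. CGCATGCG was present for Ndn, Nnat and Snrpn and in 1.87% of all windows. TATAAA was present for Gnas, Magel2, Meg3 and Snrpn and in 13.6% of all windows, and in Meg3 its matches on the 2 strands overlap each other. A member counts as matched if any of its windows held the letters, whereas each share is over single windows, so the 2 are unlike measures. These are matches of letters and not measured sites.

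Mirg spans 26 mature microRNAs of the RefSeq table on its own strand, with 25 different seeds (bases 2 to 8, in capitals). The 5 seeds shown belong to the only pair that shares a seed and to 4 others, among them miR-134, which is known for acting in neuronal dendrites. The mature molecules themselves were not measured here.
miR-453: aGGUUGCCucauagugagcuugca
miR-496a-5p: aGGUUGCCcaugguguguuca
miR-134-5p: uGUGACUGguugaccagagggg
miR-382-5p: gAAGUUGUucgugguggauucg
miR-154-5p: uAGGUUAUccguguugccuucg
miR-410-3p: aAUAUAACacagauggccugu

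After predicted doublets were left out, 8229 aged and 9948 young nuclei were clustered without the members and without the other imprinted genes. Neurons were the largest class, with 5002 aged and 6427 young nuclei and median depths of 8352.5 and 7762 UMIs. Microglia (419 aged and 487 young nuclei), oligodendrocytes (1882 and 2134), oligodendrocyte precursors (183 and 254) and astrocytes (155 and 387) had median depths between 1802 and 4291 UMIs. The 9 neuron markers summed to 11306 and 11316 CPM (counts of a gene per 1000000 UMIs) in aged and young neurons and to between 508 and 1061 CPM in these glia. A cluster of low UMI totals led by Oxt and ribosomal genes (518 aged and 89 young nuclei), in which neuron markers scored highest, stayed unnamed and enters no neuron value. The libraries shared 25 barcodes, and leaving these out moved no count below. The neurons were not all of hypothalamic kind: 6 types with 1483 aged and 1828 young nuclei carried markers of striatal projection neurons. These lay toward the low end for several members, but for no member were all 6 below every other type.

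Of the 10 genes, 6 were at least 2-fold more abundant in neurons than in every glial class, and 4 (Nnat, Gnas, Ndn and Snrpn) were not. Snrpn was above every glial class in both libraries, at ratios of 1.66 to 3.58, but under 2-fold against oligodendrocytes and aged microglia. Meg3, Rian, Mirg, Peg3, Magel2 and Grb10 were at least 2-fold higher in neurons than in each of the 4 glial classes in both libraries. With 1 further gene per class, 7 of 10 members passed this fold against oligodendrocytes, where 28.9% of all genes tested did, and 7 of 10 against microglia (26% of all genes). The count was also 7 of 10 against astrocytes (22.1% of all genes) and against precursors (17.4%). The seventh gene was Nnat against oligodendrocytes and microglia, and Snrpn against astrocytes and precursors.

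These counts moved with the treatment of free RNA, the RNA that droplets hold without a nucleus. After its estimate was subtracted, 10 of 10 members passed against oligodendrocytes (33.5% of all genes) and 9 of 10 against microglia (29.8%), all but Gnas. Against astrocytes (25%) and precursors (19.5%) 9 of 10 passed, all but Nnat. With predicted doublets kept, 5 of 10 passed against astrocytes (14.1% of all genes), where Peg3 and Snrpn no longer did, and 7 of 10 against each other class.

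Meg3, a nuclear RNA that is among the most abundant transcripts of neuronal nuclei, stood at 9108 CPM in aged and 11102 CPM in young neurons. In glia it lay between 252 CPM in young astrocytes and 773 CPM in young precursors. After every nucleus was thinned to 1000 UMIs, 99.6% of aged and 99.8% of young neurons still held a Meg3 UMI, with a median of 8 in aged and 10 in young. The unthinned shares were 99.98% and 99.95%. Thinned glia held one in 20.5% (young astrocytes) to 54.1% (aged precursors) of nuclei, so every glial share lay below every neuronal share.

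Rian stood at 784 and 808 CPM in aged and young neurons against 38.0 to 95.01 CPM in glia. Mirg stood at 170 and 171 CPM against 6.30 to 15.1 CPM. The neuronal excess was 8.51-fold to 21.3-fold for Rian and 11.4-fold to 27.0-fold for Mirg over the 4 classes and both libraries. For Meg3 it was 14.2-fold to 44.0-fold, so all 3 RNAs of the chromosome 12 cluster stood well apart between neurons and glia.

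Peg3, a zinc-finger protein of the paternal copy, stood at 407 and 387 CPM in neurons and 71.3 to 170 CPM in glia. Grb10 encodes an adaptor that binds the insulin receptor and, in mouse, is transcribed from the paternal copy in neurons and from the maternal copy in most other tissues. It stood at 223 and 198 CPM in neurons and 4.22 to 13.6 CPM in glia, 16.3-fold to 47.0-fold lower. Magel2, an intronless gene for a protein that regulates ubiquitin ligases, was scarce throughout, at 17.8 and 16.9 CPM in neurons. Glial Magel2 rested on 1 to 14 UMIs per class and library. After thinning, 2.30% of aged and 1.81% of young neurons held a Magel2 UMI (12.7% and 11.9% unthinned), against at most 0.634% of the nuclei of a glial class. In 3 of the 8 combinations of class and library 0 nuclei held one, which by the limit of 3 counts allows 0.779% to 1.95% of nuclei with a UMI at this depth. The exact upper bounds were 0.954% to 2.37%, and neither limits the share of nuclei that express the gene.

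Nnat, neuronatin, a small membrane protein of the endoplasmic reticulum, ran the other way. It stood at 275 and 305 CPM in neurons, but at 694 and 581 CPM in astrocytes and 502 and 419 CPM in precursors. Neurons were at 0.396 and 0.524 times the astrocyte level and at 0.548 and 0.728 times the precursor level. After thinning, 39.0% of aged and 34.3% of young astrocytes held an Nnat UMI (69.7% and 55.8% unthinned), against 20.9% and 22.4% of neurons (66.8% and 66.7% unthinned). Oligodendrocytes, at 102 and 74.1 CPM, and microglia, at 108 and 98.5 CPM, lay below all of these, so Nnat divided the glia.

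Gnas encodes the stimulatory G-protein alpha subunit that links hormone receptors to cyclic AMP. Its neuronal levels of 521 and 562 CPM were close to those of microglia, at 541 and 462 CPM, and neurons stood at 0.963 times the microglial level in aged and 1.22 times in young nuclei. Ndn, necdin, a MAGE-family protein of postmitotic neurons, stood at 77.5 and 52.8 CPM in neurons and at 100 and 63.3 CPM in oligodendrocytes. Snrpn, which encodes a spliceosomal protein, stood at 196 and 185 CPM in neurons and at 118 and 92.7 CPM in oligodendrocytes.

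Droplets without nuclei (40000 barcodes per library) held Ndn at 590 and 457 CPM, Gnas at 1726 and 1779 CPM and Snrpn at 575 and 494 CPM, each above the level in any class named here. If every nucleus carried the RNA of 1 such droplet, that RNA would account for 78.3% to 97.6% of the Ndn UMIs of the 4 glial classes and for 26.8% and 24.2% of those of aged and young neurons. The same estimate was 7.21% and 6.53% for Nnat in astrocytes, and 0.665% and 0.489% for Meg3 in neurons. For Magel2 in glia it was 43.4% to 142%, and for Snrpn in glia 55.4% to 103%, so these levels were not separated from free RNA. After subtraction Ndn turned direction, at 58.8 and 41.2 CPM in aged and young neurons against 13.3 and 10.7 CPM in oligodendrocytes. Gnas was then at 477 and 527 CPM in neurons against 341 and 276 CPM in microglia. Nnat stayed lower in neurons than in astrocytes, at 265 and 299.7 CPM against 709 and 589.7 CPM.

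**Figure D1:**
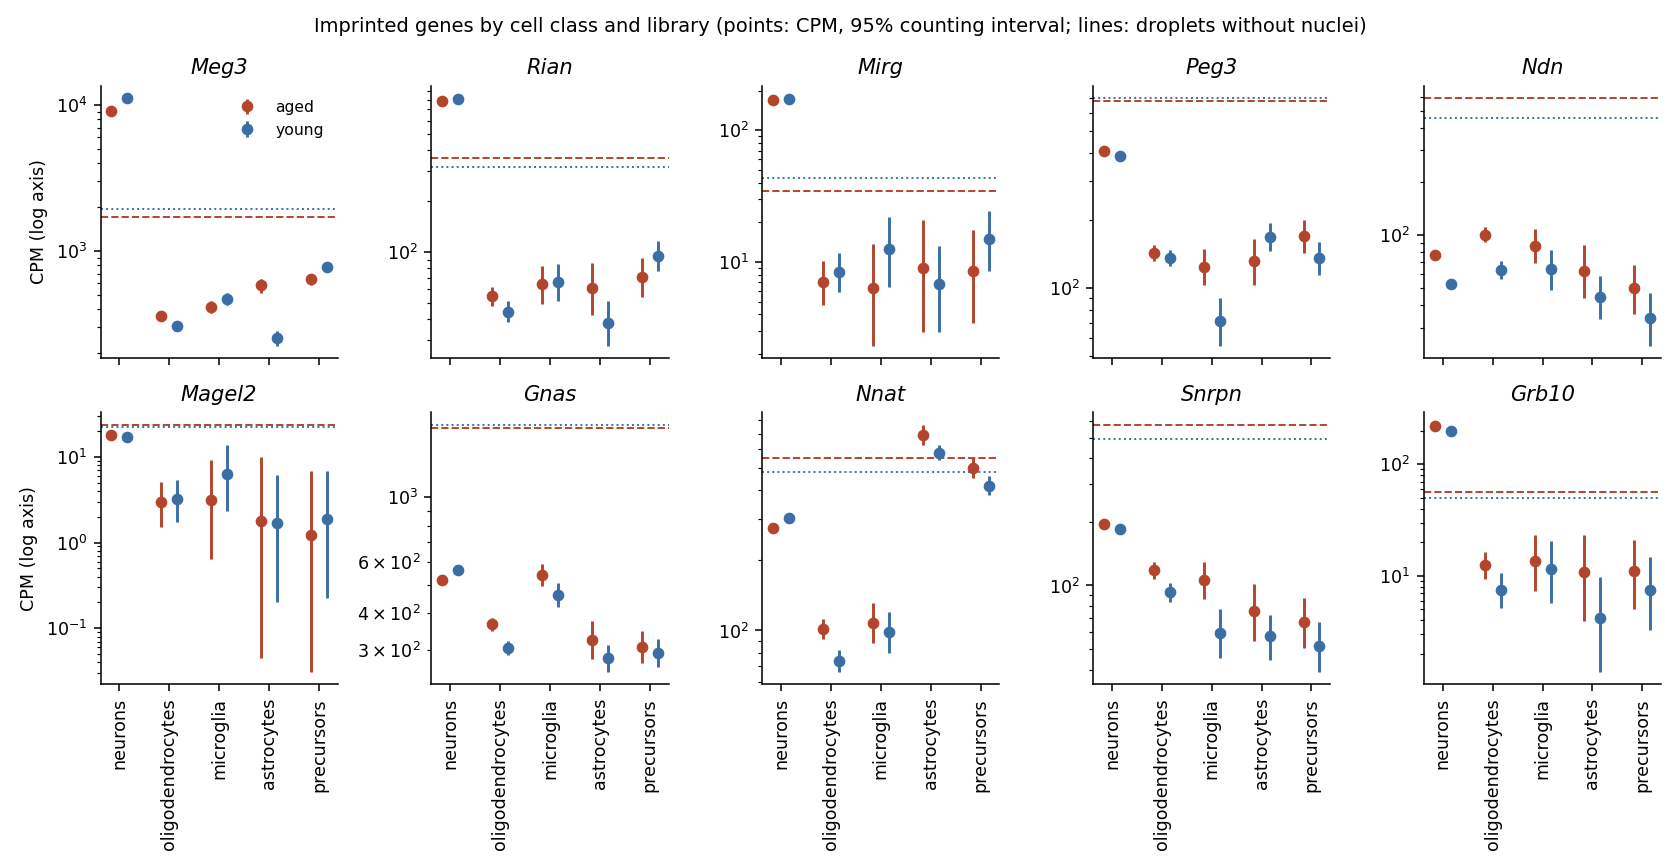
Level of each imprinted gene in CPM (log axis) in neurons, oligodendrocytes, microglia, astrocytes and oligodendrocyte precursors of the aged (red) and young (blue) library. Points are sums over all nuclei of a class with 95% counting intervals, and the dashed (aged) and dotted (young) lines are droplets without nuclei. Meg3, Rian, Mirg and Grb10 are far higher in neurons, Nnat is highest in astrocytes, and Ndn lies below the droplet lines in every class.

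The neurons fell into 27 types, of which 26 with 20 or more nuclei in each library are used, 21 of them GABAergic, 4 glutamatergic and 1 mixed. Types are called by their 2 leading genes. The members differed in how evenly they were spread. Ndn, Magel2, Gnas, Nnat and Grb10 differed at least 4-fold between the highest and the lowest type in both libraries, 5 of 10 members against 54.6% of all genes tested. Among genes with 1000 or more UMIs in the neurons of each library, a limit chosen after seeing the data, 4 of the 9 members that passed it reached this fold (26.5% of all such genes).

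Nnat had the most uneven pattern of the well-measured members. In the type led by Vip and Vipr2, a peptide of suprachiasmatic neurons and its receptor, it stood at 2583 CPM in the aged library (2455 to 2717) and 2572 CPM in the young library (2456 to 2691). That type, suprachiasmatic-like by its markers, held 88 aged and 117 young nuclei. The next type reached 440 CPM (aged) and 468 CPM (young), 5.87-fold and 5.50-fold less. The lowest types held 53.8 and 56.2 CPM. No single nucleus held more than 7.17% of the Nnat UMIs of the Vip/Vipr2 type, and 87.5% of its aged and 88.9% of its young nuclei held a UMI (60.2% and 61.5% after thinning).

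Magel2 had its peak in the same type. It stood at 130 CPM there in the aged library (103 to 163) and 124 CPM in the young library (99.5 to 152). The second type in both libraries, Gal/Tac2, led by the galanin gene, held 50.1 and 46.3 CPM, 2.60-fold and 2.68-fold less, with intervals that did not meet. Magel2 was at 3 UMIs or fewer in 8 aged and 7 young types, and at 0 UMIs in the young Tshz1/Sema5b type.

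Gnas was also highest in the Vip/Vipr2 type, at 1158 and 1433 CPM in the aged and young library. The second type was Lhx8/Zeb2 in the aged library, at 992 CPM, and Trh/Sim1 in the young library, at 1090 CPM, and neither interval met that of the highest type. Gnas was below 100 CPM in 3 aged and 4 young types, with lowest levels of 84.7 and 61.6 CPM. Gnasas1, a transcript on the opposite strand of the Gnas locus that was looked at after its values were seen, was highest in the Vip/Vipr2 type too, at 78.9 and 105 CPM. Whether reads of one were counted for the other was not tested.

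Rian and Mirg were nominally highest in the Vip/Vipr2 type as well. Rian stood at 1129 and 1232 CPM there, but the Chat/Slc5a7 type, led by genes of acetylcholine synthesis and choline uptake, followed at 1117 and 1090 CPM, and the counting intervals of the 2 types overlapped in both libraries. Mirg stood at 259 and 296 CPM, and its lead exceeded the intervals in the young library only. Meg3 did not share this order. It was highest in Chat/Slc5a7 in the aged library, at 12803 CPM, and in Pvalb/Kcnmb2 in the young library, at 15040 CPM, and lowest in the striatal-like Atp6ap1l/Frem2 type in both, at 4993 and 5488 CPM.

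Snrpn had the reverse pattern, with its lowest level of all 26 types in Vip/Vipr2, at 117 CPM in the aged library and 118 CPM in the young library. The next lowest type overlapped it in counting error in both libraries. Its highest levels, 303 and 271 CPM, were in C1ql1/Otx2os1 and Gbx1/Megf10, and the ratio of highest to lowest was 2.60 and 2.29. The leading genes of C1ql1/Otx2os1 include the transcription factor genes Onecut1 and Onecut2, and this type was also among the 2 highest for Peg3 and Ndn in both libraries.

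**Figure D2:**
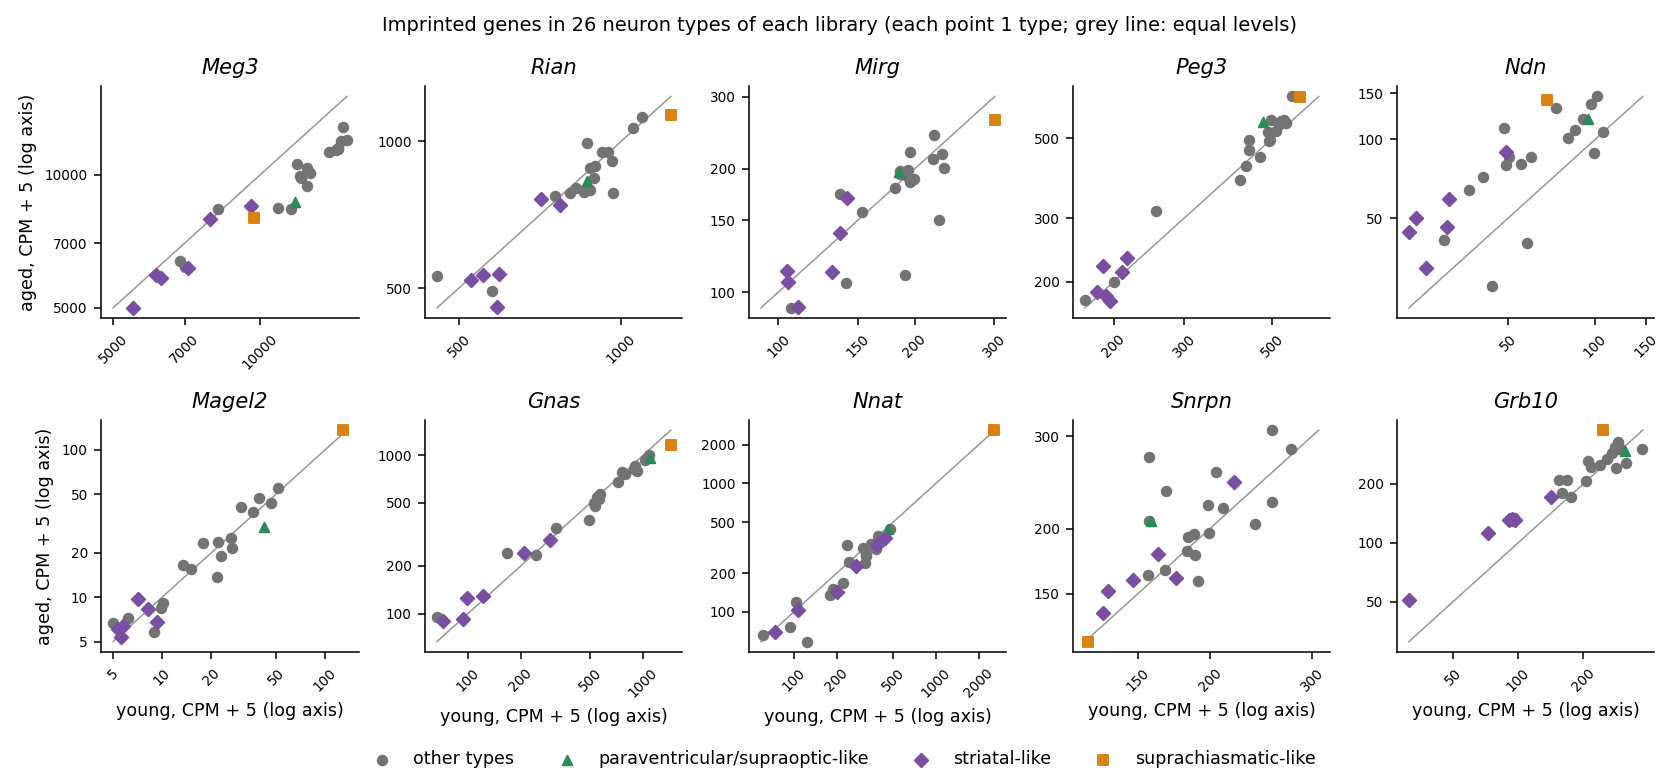
Level of each imprinted gene in each of 26 neuron types, in the young library (horizontal axis) and the aged library (vertical axis), as CPM + 5 on log axes. The grey line marks equal levels. The suprachiasmatic-like type (orange square) lies far above the rest for Nnat and Magel2 and at the bottom for Snrpn, striatal-like types (purple diamonds) lie at the low end for Peg3, Gnas and Grb10, and nearly all Meg3 points lie below the line.

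The striatal-like neurons served as a reference within the same libraries, since they came from the same dissection and were called by marker genes of the D1 and D2 projection neurons. Over the suprachiasmatic-like type, 7 of 10 members (Mirg, Peg3, Ndn, Magel2, Gnas, Nnat and Grb10) were at least 2-fold above the striatal-like sum in both libraries, against 7.67% of all genes tested. None was 2-fold below. For the Trh/Sim1 type, paraventricular and supraoptic-like by its markers with 217 aged and 281 young nuclei, 5 of 10 members (Peg3, Ndn, Magel2, Gnas and Grb10) passed, against 10.4% of all genes. Among the other imprinted genes tested, 10 of 35 passed in the suprachiasmatic-like and 14 of 37 in the paraventricular and supraoptic-like comparison.

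Magel2 was 78.1-fold (47.6 to 133) above the striatal-like sum in the suprachiasmatic-like type of the aged library and 76.0-fold (47.6 to 126) in the young library. The striatal-like sums behind these folds were 21 and 23 UMIs, at 1.67 and 1.63 CPM. In the paraventricular and supraoptic-like type the folds were 15.03 (8.94 to 26.2) and 22.6 (14.2 to 37.4). A Magel2 UMI was found in 50% of aged and 47.0% of young suprachiasmatic-like nuclei (9.09% and 14.5% after thinning to 1000 UMIs), against 1.35% and 1.26% of striatal-like nuclei (0.203% and 0.164% after thinning), whose median depths of 7845 and 7114.5 UMIs were above the 5893.5 and 5469 UMIs of the suprachiasmatic-like nuclei.

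Gnas was 7.50-fold and 9.85-fold higher in suprachiasmatic-like than in striatal-like neurons, from 154 and 145 CPM in the latter. In the paraventricular and supraoptic-like type, where vasopressin and oxytocin neurons belong, Gnas stood at 955 and 1090 CPM, 6.18-fold and 7.50-fold above striatal-like neurons. Nnat separated the 2 types. It was 10.8-fold and 9.32-fold above the striatal-like level in the suprachiasmatic-like type, but 1.84-fold and 1.64-fold in the paraventricular and supraoptic-like type.

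Peg3 was 3.26-fold and 2.99-fold higher in suprachiasmatic-like neurons and 2.77-fold and 2.42-fold higher in the paraventricular and supraoptic-like type, from 199 and 194 CPM in striatal-like neurons. All 6 striatal-like types were among the 10 lowest types for Peg3, Gnas, Rian and Grb10 in both libraries. Low levels were not particular to them. The unnamed Ccdc88c/Car12 type, whose leading genes include Drd1 and Pdyn, was lowest for Peg3 and Gnas in the young library, at 165 and 61.6 CPM. Grb10 was lowest in the striatal-like Folh1/Lrrc38 type, at 46.2 and 26.3 CPM, below the interval of the next type in both libraries. This type was called by 3 D1 markers and is part of the striatal-like sum, but neither Drd1 nor Drd2 is among its leading genes. Its median depth was 3854 and 3338 UMIs, against 7845 and 7114.5 over all striatal-like nuclei. Whether its nuclei are projection neurons was not tested. For Ndn, the folds over striatal-like neurons were 3.10 and 2.58 in the suprachiasmatic-like type and 2.59 and 3.66 in the other.

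Meg3 was 1.16-fold and 1.34-fold above the striatal-like level in the suprachiasmatic-like type and 1.26-fold and 1.62-fold in the paraventricular and supraoptic-like type, below the 2-fold limit. Snrpn was 0.742-fold (0.574 to 0.945) and 0.791-fold (0.630 to 0.982) of it in the suprachiasmatic-like type. Both counts of members were the same after the free RNA was subtracted and after the nucleus with most UMIs of the gene was left out of each type.

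**Figure D3:**
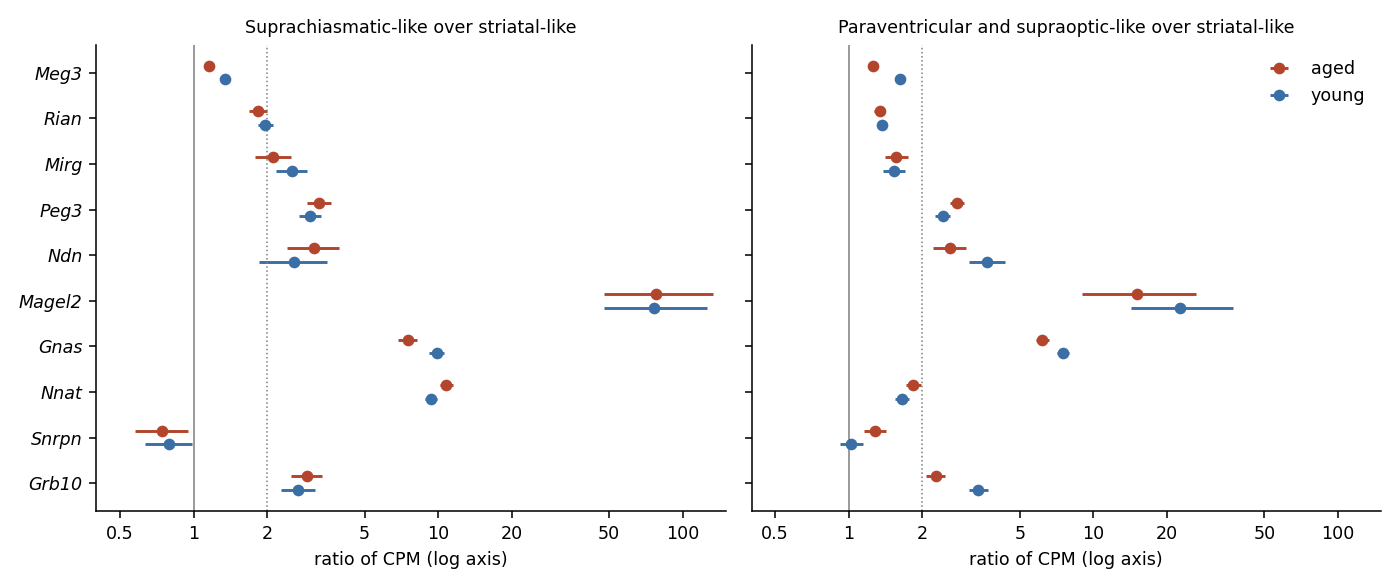
Ratio of CPM (log axis) of each imprinted gene in the suprachiasmatic-like type (left) and the paraventricular and supraoptic-like type (right) over the striatal-like sum, in the aged (red) and young (blue) library, with 95% counting intervals. The solid line marks a ratio of 1 and the dotted line a ratio of 2. Magel2 lies furthest right in both panels, Nnat is near 10 on the left and below 2 on the right, and Snrpn lies below 1 on the left.

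As a description, 24 of the 45 pairs of members had a Pearson r of log2(CPM + 5) over the 26 types above 0.5 in both libraries, and 0 had one below -0.5 in both. Among all pairs of the 7037 genes with a mean of 20 or more CPM over types, 5.48% were above 0.5 in both libraries, and Magel2 lay just under that mean, at 19.2 and 18.9 CPM. The points share their library, their depth differs between types, and levels are parts of 1 total. Rian and Mirg, neighbours in the chromosome 12 cluster, had r of 0.89 and 0.91 in the aged and young library, and Meg3 and Rian 0.87 and 0.85. Peg3 and Gnas, on different chromosomes, had r of 0.93 in both. Nnat and Snrpn had r of -0.24 and -0.20.

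Within single types the covariation was weak. In the 5 types with most aged nuclei, thinned to 3000 UMIs per nucleus, Spearman's rho of Meg3 and Rian over nuclei was 0.08 to 0.27. That of Rian and Mirg was -0.03 to 0.15. Such low values in sparse counts are no finding.

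The 2 genes most like each member over types were ranked by the lower r of the 2 libraries among 7037 genes. For Peg3 these were Phka1, a subunit of phosphorylase kinase (r 0.97 in both libraries), and Resp18, a protein of the secretory pathway (0.96 in both). Nnat was most like Dlk1, an imprinted non-canonical ligand of Notch receptors (0.78 and 0.83), and Cfap300 (0.74 and 0.73). Gnas was most like Peg3 (0.93 and 0.93) and Gprasp2, a protein that binds G-protein-coupled receptors (0.94 and 0.92). Meg3 was most like Btbd11 (0.88 and 0.93) and Rian, Rian like Mirg and Meg3, and Mirg like Rian and Abca3 (0.82 and 0.83).

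Magel2 was most like Gaa, the lysosomal alpha-glucosidase (0.87 and 0.87), and Pnma3 (0.87 and 0.87). Ndn was most like Saraf, a regulator of calcium entry (0.86 and 0.85), and Cd81, a tetraspanin (0.84 and 0.88). Grb10 was most like Nol4 (0.91 and 0.90) and Magi1, a scaffold protein (0.91 and 0.88). Snrpn had the lowest values of all, with Thy1 (0.65 and 0.66) and Atp5g1, a subunit of the ATP synthase (0.62 and 0.64).

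**Figure D4:**
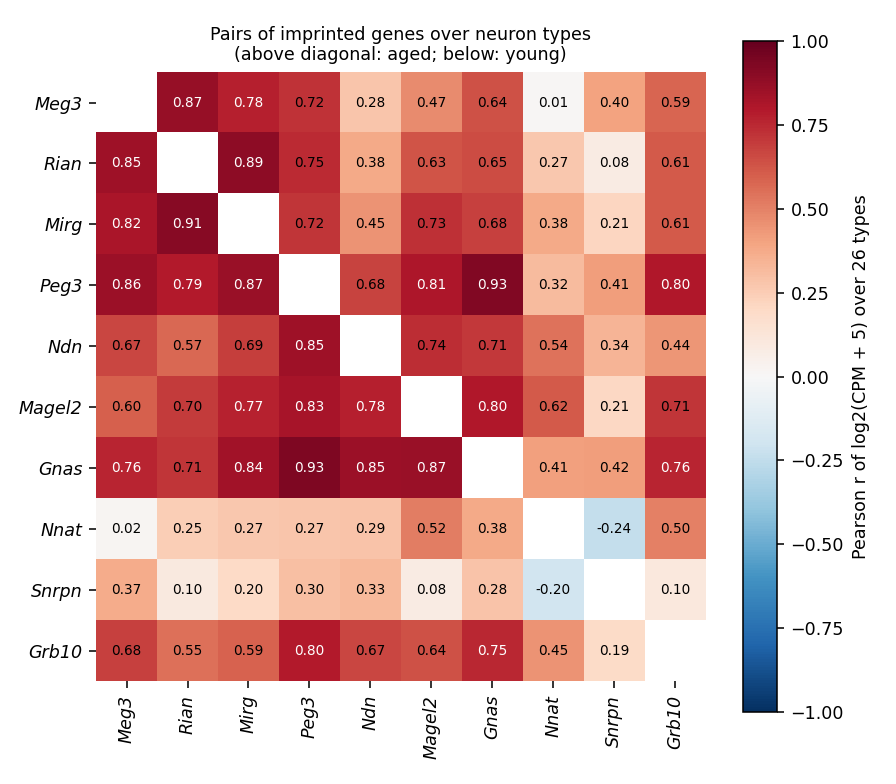
Pearson r of log2(CPM + 5) over 26 neuron types for each pair of imprinted genes, with the aged library above and the young library below the diagonal. The colour scale runs from -1 (blue) to 1 (red). Meg3, Rian, Mirg, Peg3, Magel2, Gnas and Grb10 form a block of positive values, and Snrpn has low values with most of the others. Ndn is positive with each gene of the block, from 0.28 (Meg3, aged) to 0.85 (Gnas, young).

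Between the 2 ages, most members differed little in neurons. By a margin of 25% or more, 1 of 10 members (Ndn) was higher in the aged library, where 10.7% of all 18025 genes tested were, and 0 were higher in the young library by that margin, where 13.7% of all genes were. The median of log2((aged CPM + 5)/(young CPM + 5)) was 0.02 over the members and 0.01 over all genes. Rian (ratio 0.970), Mirg (0.993), Peg3 (1.05), Magel2 (1.05) and Snrpn (1.06) were within 1.1-fold of equality.

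Meg3 was lower in aged neurons, at 9108 against 11102 CPM, a ratio of 0.820 (0.817 to 0.824). The ratio was below 1 in 24 of 26 types, with an interval below 1 in all 24, and the 2 exceptions were Drd2/Gpr6 (1.01) and Ccdc88c/Car12 (1.02). It was lowest in Gal/Tac2, at 8352 against 11540 CPM, a ratio of 0.724. Trh/Sim1 followed, at 8655 against 11774 CPM.

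Over the 6 striatal-like types the Meg3 ratio ran from 0.864 to 1.01 with a median of 0.920. Over the other 20 types it ran from 0.724 to 1.02 with a median of 0.811. The other 2 transcripts of the cluster did not show a like difference: Rian was lower in the aged library in 17 of 26 types and Mirg in 14. In droplets without nuclei Meg3 was also lower in the aged library, at 1721 against 1943 CPM, a ratio of 0.886. After the free RNA was subtracted, the ratio in neurons was 0.825. Barcodes of 100 or fewer UMIs differed more, with Meg3 at 4423 CPM in the aged and 6960 CPM in the young library. Subtraction of that profile was not tested.

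Ndn was higher in aged neurons, at 77.5 against 52.8 CPM, a ratio of 1.47 (1.40 to 1.54). The ratio was above 1 in 23 of 26 types and its interval lay above 1 in 20. The highest ratio was 2.45 in Npy/Sst, and the lowest was 0.579 in the thalamic-like Lef1/Plekhg1 type, whose interval lay below 1. Ndn was also higher in the aged library in oligodendrocytes, microglia, astrocytes and precursors, at ratios of 1.58, 1.36, 1.41 and 1.47, of which the interval excluded 1 in oligodendrocytes. In droplets without nuclei Ndn was higher in the aged library as well, at a ratio of 1.29, and after the free RNA was subtracted the neuronal level was 58.8 against 41.2 CPM, a ratio of 1.43. Barcodes of 100 or fewer UMIs differed more, with Ndn at 379 CPM in the aged and 210 CPM in the young library. Subtraction of that profile was not tested.

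Grb10 was 1.12-fold (1.09 to 1.15) higher in aged neurons, and its interval lay above 1 in 11 of 26 types. Its ratio ran from 1.21 to 1.76 over the 6 striatal-like types, where its level was low, and from 0.805 to 1.54 over the other 20. Nnat was at 0.902 (0.882 to 0.923) of its young level and was lower in 21 of 26 types, with 11 intervals below 1. Gnas was at 0.927 (0.912 to 0.943) and lower in 17 types, with 8 intervals below 1 and 4 above. In the suprachiasmatic-like type, Nnat at 2583 and 2572 CPM and Magel2 at 130 and 124 CPM had overlapping intervals in the 2 libraries, while Gnas was lower in the aged one, at 1158 (1072 to 1249) against 1433 CPM (1347 to 1523).

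**Figure D5:**
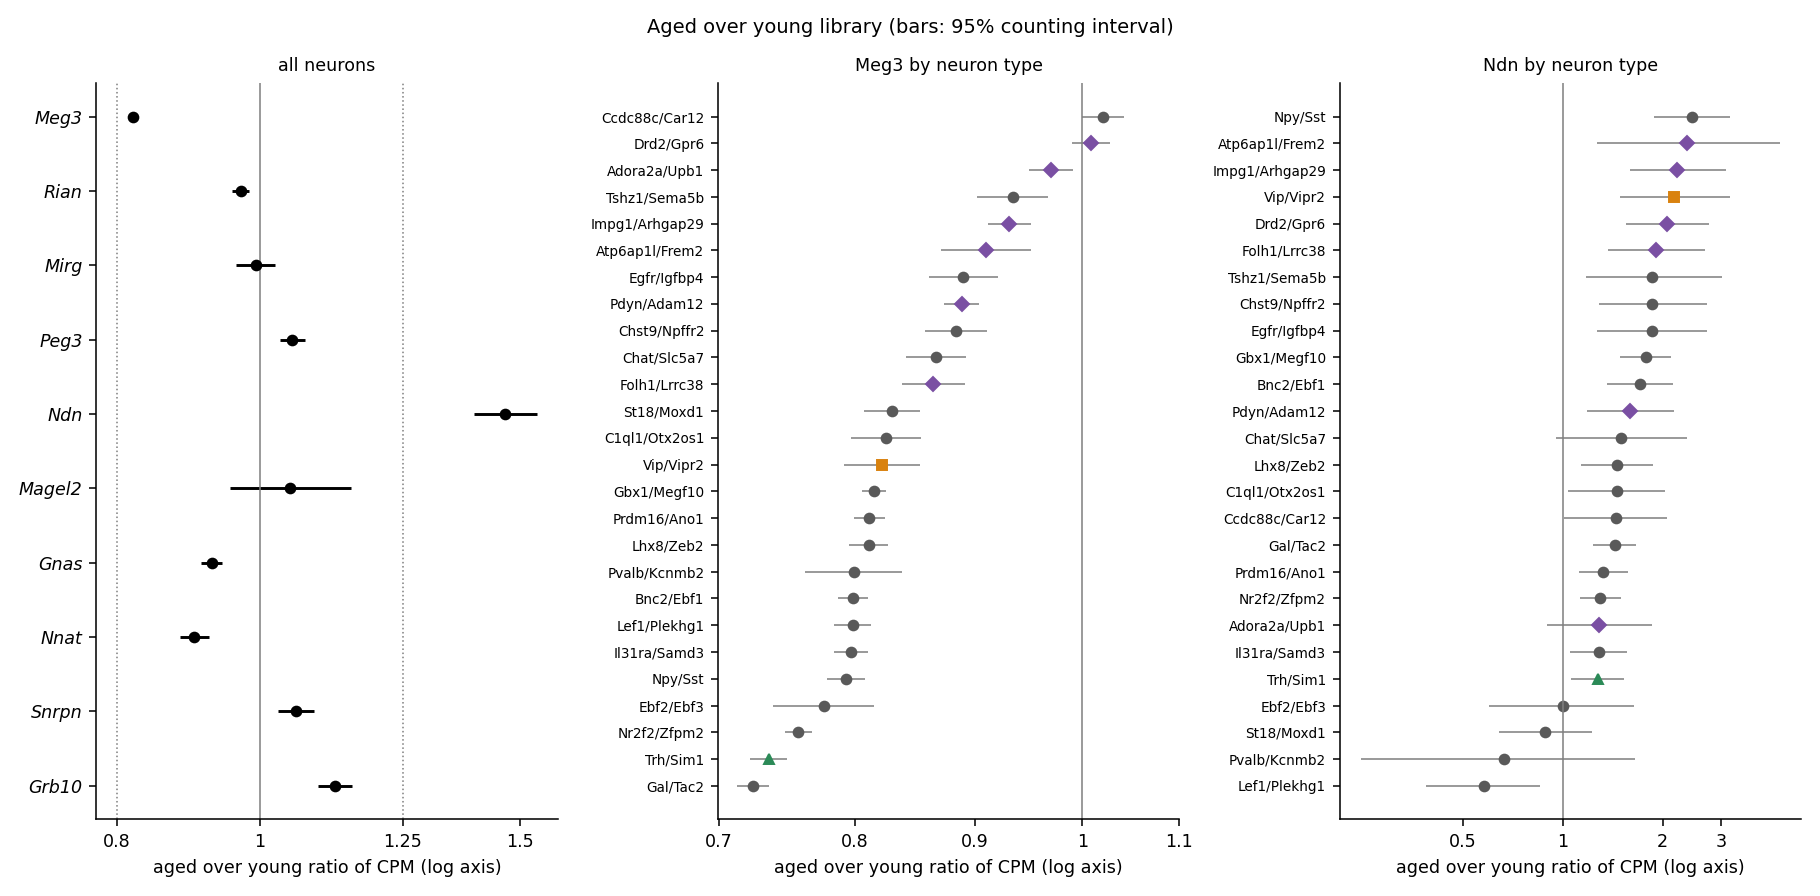
Aged over young ratio of CPM (log axis) with 95% counting intervals, for the 10 imprinted genes in all neurons (left, dotted lines at a difference of 25% to either side) and by neuron type for Meg3 (middle) and Ndn (right). Orange squares mark the suprachiasmatic-like, green triangles the paraventricular and supraoptic-like and purple diamonds the striatal-like types. Meg3 lies below 1 in 24 of 26 types and Ndn above 1 in 23.

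In glia, where neuron markers were also detected, more members were higher than lower in the aged library. In oligodendrocytes 4 of 9 members tested were higher in the aged library by 25% or more (22.7% of all genes) and 0 were higher in the young library by that margin (8.26% of all genes). The counts in the 2 directions were 3 and 0 of 7 in microglia (21.4% and 14.8% of all genes), 4 and 1 of 7 in astrocytes (21.1% and 16.6%), and 3 and 1 of 7 in precursors (20.9% and 17.4%). The 4 in oligodendrocytes were Ndn, Nnat, Snrpn and Grb10, with free RNA estimated at 68.1% to 88.7% of their aged UMIs. After its subtraction, Snrpn turned, at 36.9 CPM in aged against 39.0 CPM in young oligodendrocytes. Ndn (13.3 against 10.7 CPM), Nnat (22.4 against 19.9 CPM) and Grb10 (4.68 against 1.84 CPM) stayed higher in aged. The part of free RNA in these counts was not tested. Meg3 in astrocytes differed most, at 581 CPM in aged and 252 CPM in young nuclei, a ratio of 2.30 (1.96 to 2.70). The summed neuron markers in the same astrocytes were 980 and 508 CPM, a ratio of 1.93, against 1.36 in oligodendrocytes, 1.16 in microglia and 1.02 in precursors, and their part in the result was not tested.

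Nnat, which was high in astrocytes and precursors, was 1.20-fold higher in the aged library in both, with intervals of 1.05 to 1.36 and 1.05 to 1.37. The droplet level of Nnat was 549 and 479 CPM, a ratio of 1.15. Oligodendrocyte Nnat was 1.37-fold (1.18 to 1.59) higher in the aged library, where free RNA was estimated at 81.3% and 76.3% of its UMIs.

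Of 52 further imprinted genes on a fixed list, 50 were among the features and 40 had 50 or more UMIs over the neurons of both libraries. Of these, 5 were higher in aged and 6 in young neurons by 25% or more, with a median log2 ratio of 0.01, against the same 10.7% and 13.7% of all genes. Ube3a, the ubiquitin ligase lost in Angelman syndrome, which neurons transcribe from the maternal copy, stood at 969 against 1230 CPM, a ratio of 0.787 (0.778 to 0.797). Rtl1, transcribed from the paternal copy beside Meg3, stood at 53.0 against 73.2 CPM, a ratio of 0.725 (0.689 to 0.762).

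Zim3 at 15.7 against 25.2 CPM, Sfmbt2 at 33.8 against 46.3 CPM and Zim1 at 30.7 against 39.3 CPM were lower as well. Ddc, the decarboxylase of dopamine and serotonin synthesis, stood at 20.1 against 13.8 CPM, and Impact, a regulator of translation, at 203 against 160 CPM. Calcr, the calcitonin receptor, stood at 17.0 against 12.8 CPM and Gpr1 at 6.68 against 4.93 CPM. Dio3, which inactivates thyroid hormone, rested on 36 and 28 UMIs, and the interval of its ratio of 1.54 ran from 0.914 to 2.62.

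Ranked by the spread over neuron types, with types of 3 or fewer UMIs set to 3, Dlk1, Calcr, Zim1, Sfmbt2 and Atp10a varied most among these 40 genes. Dlk1 peaked in the Vip/Vipr2 type like Nnat, at 612 and 583 CPM. It was at 3 or fewer UMIs in 4 aged and 3 young types, among them Pvalb/Kcnmb2 with 0 UMIs in both libraries. With these set to 3 UMIs, the spread to the lowest level was 132-fold (aged) and 184-fold (young). That lowest level was in a deeper type than Pvalb/Kcnmb2, whose few nuclei bound its level less tightly. Calcr was highest in Trh/Sim1 in the aged library, at 76.2 CPM, and in Vip/Vipr2 in the young library, at 74.3 CPM. Zim1, beside Peg3, stood at 89.2 and 100 CPM in Vip/Vipr2 against 2.62 and 2.69 CPM in striatal-like neurons. Atp10a was highest in Lef1/Plekhg1, at 133 and 187 CPM, and Sfmbt2 in Ebf2/Ebf3, at 108 and 179 CPM.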

How the data were processed

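Single-nucleus RNA libraries of 2 pools of 5 male mice, aged 22 and 3 months, were analysed. The authors deposited unfiltered matrices of UMI counts per gene and barcode with no normalisation. Per the file headers, Cell Ranger 4 wrote them. Neither the build and annotation that Cell Ranger used, nor whether it counted introns or took strand into account, is given in the sources used here. The members and lists were chosen with earlier results of these data known.

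All further values were computed from the counts. Barcodes with 500 or more genes and at most 5% mitochondrial UMIs were kept (8597 aged with a median of 5699 UMIs, 10437 young with a median of 5567). Scrublet in scanpy 1.11.5, run per library, marked 368 aged (4.28%) and 489 young (4.69%) barcodes as doublets, which were left out. Nuclei of both ages went into 1 clustering. Counts were scaled to 10000 per nucleus and logged, 2000 variable genes without the imprinted ones gave 30 components, and Leiden communities (resolution 1) came from a graph of 15 neighbours per nucleus. Neurons were then clustered again by the same steps. No deposited annotation was used, so names are rebuilt from markers and stand for nuclei that resemble a type. Low-UMI clusters and those without clear markers stayed unnamed and are in no class, including one led by Oxt and ribosomal genes (518 aged and 89 young nuclei).

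For each class or type of a library, UMIs were added up and divided by the total to give CPM. Intervals of levels are exact Poisson, of shares exact Clopper-Pearson and of ratios exact conditional binomial, all at 95% and for counting error only. A limit given for a count of 0 is 3 counts of the total. The ratio step was tested on simulated data. Genes needed 50 or more UMIs over both sides of a comparison. Shares were also taken after thinning to 1000 UMIs, and shallower nuclei were left out (10 aged neurons). Free RNA was the mean profile of barcodes ranked 20001 to 60000 by UMIs with under 500 genes. All 10 members are named, and other imprinted genes are named by their rank (up to 5 in each direction of the age ratio by the bound nearest to 1, and 5 by spread over types). Likeness was ranked among genes with a mean of 20 or more CPM over types, without provisional gene models. No p-value was computed, because each age has 1 library. Gene overlaps came from GENCODE M21 by Ensembl identifier, and sequences and their coordinates from RefSeq on GRCm38.p6.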

Additional observations from a re-analysis of the deposited data

Results flagged for a closer look

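Rian and Peg3 had age ratios that ran in opposite directions by 25% or more in different glial classes. Rian was at an aged over young ratio of 1.61 in astrocytes (interval 1.00 to 2.57, from 34 and 45 UMIs) and 0.743 in precursors (0.529 to 1.04). Peg3 was at 1.74 in microglia (1.28 to 2.38) and 1.26 in precursors (0.990 to 1.60), but 0.777 in astrocytes (0.586 to 1.02). The differences between classes were not tested, and of these 5 intervals only that of Peg3 in microglia excluded 1. Free RNA was estimated at 79.0% and 121% of microglial Peg3 UMIs in the aged and young library.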

How the results depend on the processing

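No paired analysis was possible because each age has 1 library. For 22 results, 229 alternative settings were computed, covering the doublet, barcode and mitochondrial filters, free RNA, totals without the members, the clustering genes and resolution, the UMI minimum, the added CPM, the weighting of neuron types and the most extreme nucleus. The barcodes shared by both libraries, the minimum of 1000 UMIs, and the settings for the suprachiasmatic-like and the paraventricular and supraoptic-like counts were chosen after seeing the data. In 223 of the 229 the value stayed within the counting interval or, for a count, within 1.5 times, and 0 reversed. Within that range, the counts of members higher in neurons than in oligodendrocytes, microglia, astrocytes and precursors were 10, 9, 9 and 9 in place of 7 with free RNA subtracted, and 5 against astrocytes with doublets kept. The other 6 concern single genes. The log2 ratio of Meg3 was -0.28 with free RNA subtracted, -0.30 after centring on the median of all genes and -0.27 with neuron types weighted alike. That of Ndn was 0.47 with free RNA subtracted and 0.42 with 20 CPM added, and that of Gnas was -0.14 with free RNA subtracted. Over all alternatives the log2 ratio of Meg3 ran from -0.30 to -0.27 and that of Ndn from 0.42 to 0.54. The sign of Mirg changed in 1 of its alternatives. With genes of 1000 or more UMIs, 4 members in place of 5 were 4-fold apart over types. Depth limits Magel2 most, since glial classes held 14 or fewer of its UMIs. With 1 library per age no difference between ages has a replicate check, and counts limit those of genes with few UMIs as well.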

Other observations

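Grb10 and Meg3 were also detected in the few vascular nuclei. Endothelial nuclei (20 aged and 23 young) held Grb10 at 263 CPM (144 to 442) and 195 CPM (93.5 to 358), from 14 and 10 UMIs, and Meg3 at 2257 and 2495 CPM. Mural nuclei (28 aged and 38 young) held Grb10 at 303 and 184 CPM, from 17 and 21 UMIs. The summed neuron markers in the same endothelial nuclei were 2859 and 3528 CPM, and in the mural nuclei 1978 and 6232 CPM, and their part in these levels was not tested. Snurf, which overlaps Snrpn on the same strand, and Zim2 held 0 UMIs in the 26 neuron types of both libraries. By the limit of 3 counts a count of 0 allows up to 0.0646 CPM in the aged and 0.0554 CPM in the young library. For Snurf this limit covers counted UMIs only and sets no limit on the transcript. The assignment of reads that Snurf shares with Snrpn was not tested.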
